A study of Mus musculus with 9 samples.

Results

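Apobec4 RNA was nearly absent from Rfx2-/- testes, at 0.261% of its wild type level, whereas the 3 other APOBEC genes measured and Rgl1, the gene in whose intron Apobec4 lies, were each between 75.1% and 135% of wild type. The genes described here are the 4 mouse genes with an Apobec symbol, Apobec1, Apobec2, Apobec3 and Apobec4, together with Rgl1. They are 5 of the 23074 genes of the count table and were found by the names that GENCODE gives to the Ensembl identifiers of the table. All 5 were among the 15613 genes with enough counts to be tested. Apobec4 was chosen for its low value in the knockout, so its genotype difference is a description and is given with no test. Apobec1, Apobec2 and Apobec3 were chosen for their names and Rgl1 for its position, and their differences were tested.

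Whole testes, freed of their capsule, were taken from 9 mice at postnatal day 29 to 30, and 1 RNA-seq library was made for each mouse. The control group was 5 mice labelled wild type and the other group was 4 Rfx2-/- mice. All 9 had the same mixed background of C57BL/6, 129/Sv and FVB/N. RFX2 is an RFX family transcription factor. It binds the X-box, a DNA motif first described in promoters of antigen presentation genes. The knockout allele has lost an exon that encodes much of the DNA-binding domain, through recombination by a ubiquitously expressed Cre, and was carried in every cell of the animal. The labels do not give litters. Rfx2 itself, the check of the genotype labels, stood at 549 ± 54.4 CPM (counts scaled to a common library total with TMM factors, SD, n = 5) in wild type against 146 ± 59.7 CPM (SD, n = 4) in Rfx2-/- testes, with no overlap between the genotypes. Reads from its remaining exons were still counted.

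APOBEC proteins share a zinc-dependent cytidine deaminase domain, which in active members converts cytidine to uridine in RNA or DNA. APOBEC1 edits the apolipoprotein B mRNA in the intestine with the help of RNA-binding cofactors, APOBEC3 restricts retroviruses and retrotransposons, and APOBEC2 is a muscle protein without an established substrate. APOBEC4 is the least studied of them. Its gene is expressed mainly in testis and no deaminase activity has been established for it. RGL1 is of another kind: it is an exchange factor that activates the small GTPases RALA and RALB downstream of RAS.

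Apobec4 (ENSMUSG00000055547) was annotated on the plus strand of GRCm38 at chr1:152750551-152757544, with 2 exons. The first exon, of 214 bases, is untranslated. The second, of 1352 bases, holds the whole coding sequence, from the start codon at position 152756223 to the stop codon that ends at position 152757347. Rgl1 (ENSMUSG00000026482) was annotated on the minus strand at chr1:152516760-152766351. Of its 3 coding transcripts, the 2 long ones start on the far side of Apobec4, and the whole of Apobec4 lies within their first intron of 90883 bases, at chr1:152675024-152765906. The shorter transcript starts at position 152625217 and does not span Apobec4. The distal Rgl1 start lies 15800 bases from the Apobec4 start, and another gene, Arpc5, which encodes a subunit of the ARP2/3 actin complex, starts 191 bases from that distal start on the opposite strand. The exons of Apobec4 and Rgl1 share 0 bases. The sources used here do not say whether strand was used in counting. If it was not, a read from the unspliced Rgl1 intron that falls on an Apobec4 exon is counted for Apobec4.

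**Figure D1:**
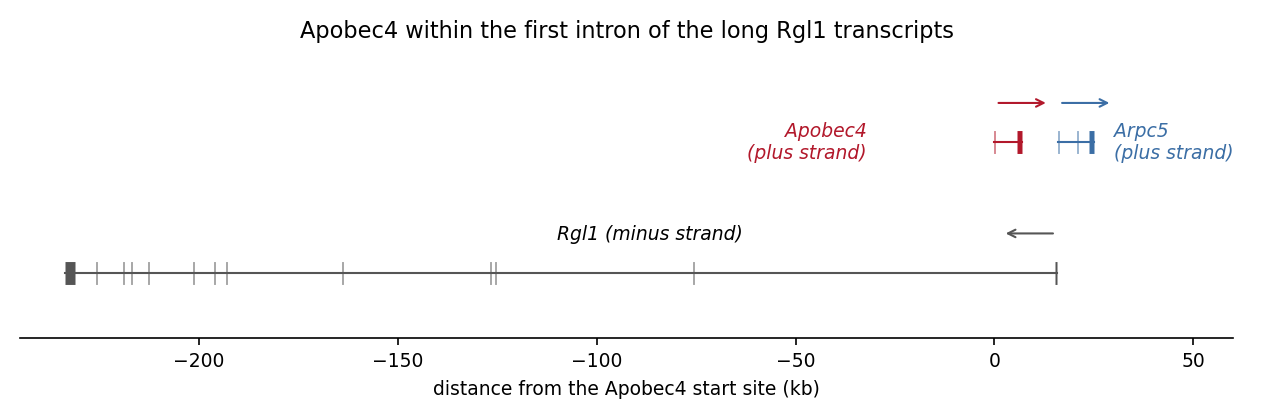
Map of Apobec4, Rgl1 and Arpc5, to scale, with the distance from the Apobec4 start site in kb on the horizontal axis, thick blocks for merged exons, thin lines for introns and arrows for the direction of transcription. Apobec4 lies within the first intron of the long Rgl1 transcripts, on the opposite strand, and the distal Rgl1 start is 15.8 kb away.

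The sequence before the Apobec4 start site is shown because it holds the closest X-box match of the 5 genes. The X-box searched for was the inverted repeat of the arm GTTGCC, any 2 bases and the arm GGCAAC, which reads the same on both strands, so that 12 bases were compared at each position. The sequence is that of RefSeq for GRCm38.p6, plus strand, chr1:152750301-152750550, which are the 250 bases before the start, with the best match in capitals.
Apobec4: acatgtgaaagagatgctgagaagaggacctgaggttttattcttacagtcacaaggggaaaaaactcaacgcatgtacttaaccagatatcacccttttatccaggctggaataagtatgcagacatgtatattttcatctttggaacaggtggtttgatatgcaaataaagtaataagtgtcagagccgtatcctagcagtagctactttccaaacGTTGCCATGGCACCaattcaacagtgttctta
The match lies at chr1:152750519-152750532, at bases -32 to -19 from the start site. It holds 11 of the 12 bases, with the single difference A13C, in which the motif's base comes first and positions are counted from 1 at its 5′ end. Windows of 250 bases before to 50 after each RefSeq start site were available for all 5 genes, and of the 32851 windows in all, 224 (0.682%) had a match this good or better. The arm GTTGCC alone, on either strand, was in 4111 windows (12.5%), that of Apobec4 among them, and in no window of the other 4 genes.

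The best matches in the windows of the other 4 genes are set beside that of Apobec4 to show how far they depart from the X-box, with the bases that match in capitals.
Apobec4: GTTGCCatGGCAcC
Rgl1 distal start: GTTcCCataGaAAC
Rgl1 internal start: GcTGCCgcGGgctC
Apobec3 first start: tcTGCCaaGcCAAg
Apobec3 second start: GTgGgCctGGgAga
Apobec2: tTgGCCcaGcCctC
Apobec1: GgTGtgggGGgAAg
The distal Rgl1 start, the one whose transcripts span Apobec4, had a best match of 9 of 12, reached by 14.1% of all windows, and its internal start had 8 of 12. The windows of Apobec3 had 8 and 7 of 12, and those of Apobec1 and Apobec2 had 7. A match of 8 was reached by 60.4% of windows and one of 7 by 98% of windows, so these are the values of ordinary promoters. A match is a description of the letters in a window and not evidence of binding.

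**Figure D2:**
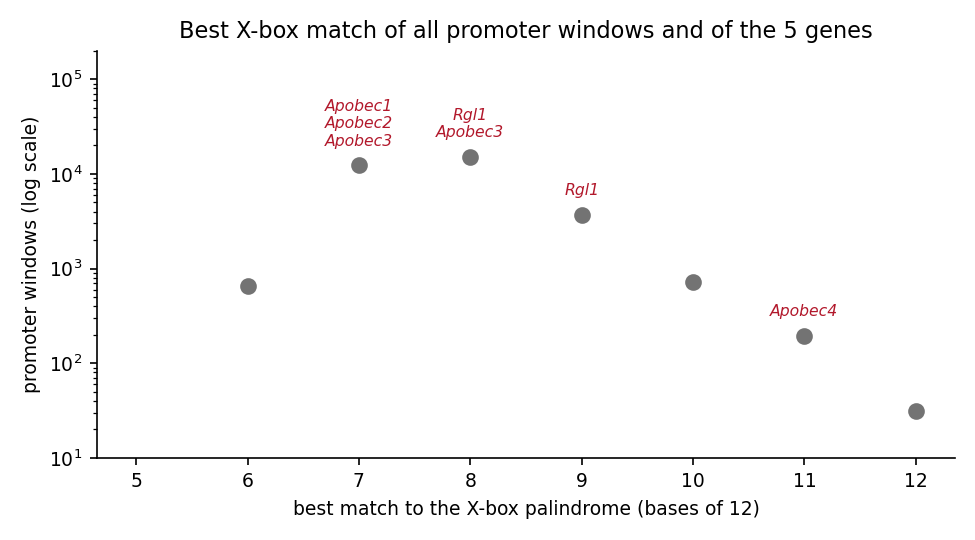
Number of RefSeq promoter windows (log scale, vertical axis) by the best match to the X-box in bases of 12 (horizontal axis), with the windows of the 5 genes named above the point they belong to. Apobec4 stands at 11 of 12, a value reached or passed by 224 of 32851 windows, and the windows of the other 4 genes stand at 7 to 9.

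In wild type testes Apobec4 had 741, 732, 614, 750 and 788 counts in replicates 1 to 5, and in Rfx2-/- testes it had 7, 1, 2 and 2 counts in replicates 1 to 4. Scaled for depth, these were 56.6, 56.6, 40.8, 55.3 and 61.4 CPM in wild type, and 0.232, 0.0668, 0.136 and 0.131 CPM in Rfx2-/-. All 4 Rfx2-/- libraries lay far below the lowest wild type library, wild type replicate 3. The means were 54.1 ± 7.82 CPM (SD, n = 5) and 0.141 ± 0.0682 CPM (SD, n = 4). In 3 of the Rfx2-/- libraries the level was below that of 3 counts, the most that a count of 0 allows, which was 0.0995 CPM in Rfx2-/- replicate 1 and 0.196 to 0.234 CPM in the other 8 libraries. Only Rfx2-/- replicate 1, with 28800855 counts against 13574764 to 15193330 in the others, was above it.

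Over all Rfx2-/- libraries together Apobec4 had 12 counts, against 3625 in wild type, which is 0.298% of wild type after correction for total counts (exact 95% interval 0.154 to 0.520%, counting error only). The fitted log2 fold change was -8.36 (SE 0.27, 95% interval -8.95 to -7.77), the fifth lowest of the 15613 genes tested. In all, 575 genes (3.68%) were called lower and 129 (0.826%) higher in Rfx2-/-, with a call defined as an adjusted p of at most 0.01 and a change of more than 2-fold. Since Apobec4 was chosen from this contrast, nothing is read from its place in it. In a whole testis, fewer cells of a type and less RNA per cell cannot be told apart.

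Summed markers of germ cell stages were measured in the same libraries. Those of round spermatids, the first haploid cells after meiosis (Acrv1, Spaca1, Spaca7, Tssk1, Tssk2 and Acr), were at 99.3% of wild type, at 929.7 to 1449 CPM in wild type against 1036 to 1454 CPM in Rfx2-/- libraries. Those of meiotic prophase were at 161%, at 815 to 1105 CPM in wild type against 1147 to 2405 CPM in Rfx2-/-, with the highest sum in Rfx2-/- replicate 2. Those listed for elongating spermatids, which include the protamines and transition proteins, were at 57.8%. Their ranges overlapped, at 9686 to 19279 CPM in wild type against 7883 to 10839 CPM in Rfx2-/-. All 8 of the latter were below 0 on the log2 scale, but no marker of these stages was called, against 4.51% of all genes tested. The sums are RNA levels and not counts of cells. The part of these stages in the Apobec4 result was not tested.

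Rgl1 differed little between the genotypes and was not called. Wild type replicates 1 to 5 had 119, 147, 127, 142 and 150.3 CPM, and Rfx2-/- replicates 1 to 4 had 118, 70, 118 and 105 CPM. The highest Rfx2-/- libraries were just under the lowest wild type library, and Rfx2-/- replicate 2 was the lowest of all. The means were 137 ± 13.6 CPM (SD, n = 5) and 103 ± 22.6 CPM (SD, n = 4), so that Rgl1 in the knockout was at 75.1% of wild type. The log2 fold change was -0.41 (SE 0.17, 95% interval -0.78 to -0.04), with an adjusted p of 0.14 by the quasi-likelihood test of edgeR. Genotypes that did not overlap, with Rfx2-/- lower, were found for 1514 (9.70%) of all genes tested. Without TMM factors the Rgl1 ranges overlapped, at 114 to 139.9 CPM in wild type against 75.6 to 127 CPM in Rfx2-/-, and without Rfx2-/- replicate 2 the log2 fold change was -0.27. At an adjusted p of at most 0.05 with no fold limit, by which 7.31% of all genes were lower and 3.48% higher, Rgl1 was not called either. Thus the host gene was at 75.1% of wild type in libraries in which the gene inside its intron was at 0.261%. The table counts all Rgl1 transcripts together, so those that span Apobec4 and the internal one cannot be told apart.

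**Figure D3:**
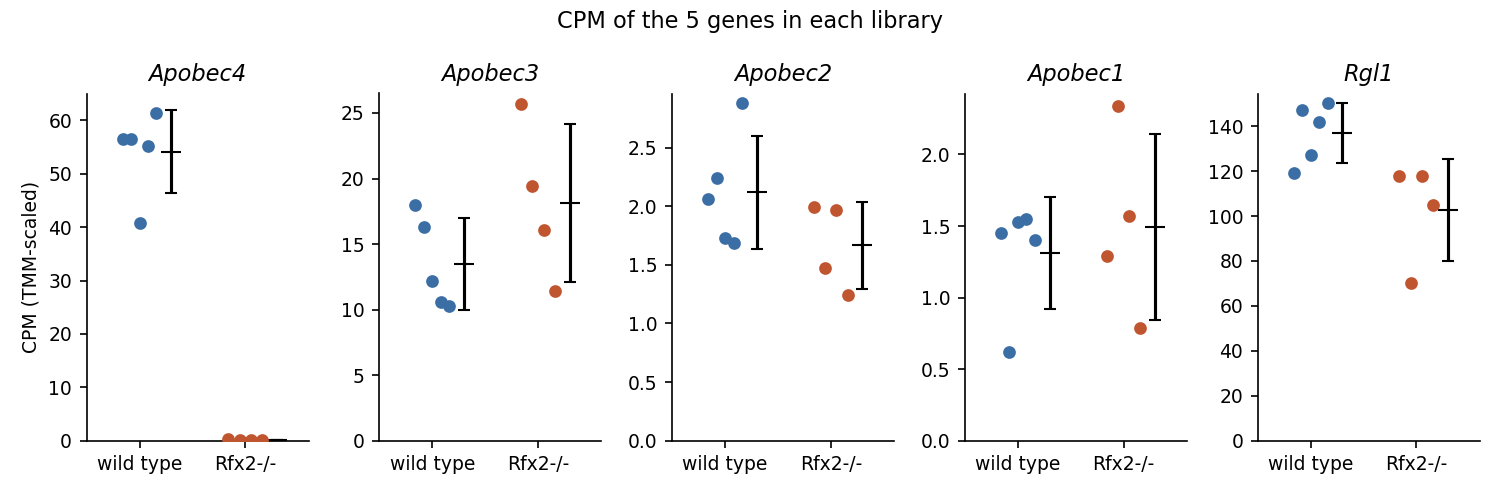
TMM-scaled CPM of each gene in each library (blue, 5 wild type; orange, 4 Rfx2-/-), with the mean and SD as a black bar beside the points and an axis from 0 for each gene. Apobec4 was at 40.8 to 61.4 CPM in wild type and at most 0.232 CPM in Rfx2-/-, whereas the points of Apobec1, Apobec2 and Apobec3 overlapped between the genotypes, and Rgl1 was at 119 to 150.3 CPM in wild type and at 70 to 118 CPM in Rfx2-/-.

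None of the other APOBEC genes was called. Apobec3 (ENSMUSG00000009585, chr15:79891659-79915906, plus strand) had 18.0, 16.3, 12.2, 10.6 and 10.3 CPM in wild type replicates 1 to 5 and 25.7, 19.4, 16.1 and 11.4 CPM in Rfx2-/- replicates 1 to 4. In 2 of the 4 Rfx2-/- libraries it was above the highest wild type library, and in the other 2 within the wild type range. Its means of 13.5 ± 3.47 CPM (SD, n = 5) and 18.1 ± 6.02 CPM (SD, n = 4) gave a log2 fold change of 0.43 (95% interval -0.10 to 0.97, edgeR adjusted p 0.269). Of its exonic stretches of 50 bases, 8.84% occur in transcripts of another gene too, whereas for the others this share was 0. Its exons share 331 bases with those of D730005E14Rik, a gene that is not in the count table. That overlap can account for part of the 8.84%, so how far the Apobec3 count is less certain is not known.

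Apobec1 and Apobec2 were close to the limit of what these libraries can measure. Apobec1 (ENSMUSG00000040613, chr6:122577792-122602444, minus strand) had 19, 8, 23, 21 and 18 counts in wild type and 39, 35, 23 and 12 in Rfx2-/-, or 1.31 ± 0.39 CPM (SD, n = 5) and 1.5 ± 0.648 CPM (SD, n = 4). The genotypes overlapped, and the log2 fold change was 0.18 (95% interval -0.57 to 0.92, edgeR adjusted p 0.767). Its direction rested on Rfx2-/- replicate 2, without which the value was -0.11. Apobec2 (ENSMUSG00000040694, chr17:48419231-48432930, minus strand) had 27, 29, 26, 23 and 37 counts in wild type and 60, 22, 29 and 19 in Rfx2-/-, or 2.12 ± 0.484 CPM (SD, n = 5) and 1.67 ± 0.374 CPM (SD, n = 4). Its genotypes overlapped as well, and its log2 fold change was -0.33 (95% interval -0.86 to 0.20, edgeR adjusted p 0.398). The 95% intervals of Apobec1, Apobec2 and Apobec3 all allow changes in either direction.

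Markers of other cells that express APOBEC genes were also summed. Of 10 macrophage markers 8 were above 0 on the log2 scale, and their sum ranged from 124 to 168 CPM in wild type against 147 to 281 CPM in Rfx2-/-. The highest sum was in Rfx2-/- replicate 2, the library with the highest Apobec1 level (2.34 CPM), while Apobec3 was highest in Rfx2-/- replicate 1, which had a macrophage sum of 147 CPM. All 10 macrophage markers were detected. The sum of 8 lymphocyte markers was 8.73 to 13.8 CPM in wild type against 2.87 to 11 CPM in Rfx2-/-, and that of 6 skeletal muscle markers was 1.79 to 3.48 and 2.72 to 4.54 CPM, with 1 marker in each of these lists at or under 3 counts in every library. The part of these cells in the levels of Apobec1, Apobec2 and Apobec3 was not tested.

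Divided by exon length, Apobec4 was the most abundant of the 5 genes in all 5 wild type libraries and the least abundant in all 4 Rfx2-/- libraries. Per kb of merged exon, wild type levels were 34.6 ± 4.99 CPM for Apobec4, 25.5 ± 2.53 for Rgl1, 3.64 ± 0.938 for Apobec3, 1.49 ± 0.341 for Apobec2 and 0.541 ± 0.161 for Apobec1 (SD, n = 5). The ranges of Apobec4 and Rgl1 overlapped between libraries, although Apobec4 was the higher in each, and those of the lower genes did not overlap. In Rfx2-/- testes the order was Rgl1 with 19.1 ± 4.22, Apobec3 with 4.91 ± 1.63, Apobec2 with 1.18 ± 0.263, Apobec1 with 0.618 ± 0.268 and Apobec4 with 0.0904 ± 0.0436 CPM per kb (SD, n = 4). There the ranges of Apobec2 and Apobec1 overlapped.

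Apobec4 thus made up 85.8 ± 2.21% (SD, n = 5) of the length-scaled RNA of the 4 APOBEC genes in wild type testes, with a range of 83.5 to 88.2%. In Rfx2-/- testes it made up 1.37 ± 0.574% (SD, n = 4). The other 3 APOBEC genes together had 4.70 to 6.91 CPM per kb in wild type and 4.27 to 8.88 in Rfx2-/- libraries, and these ranges overlapped. The ratio of Apobec4 to its host Rgl1 went from 1.36 ± 0.191 to 0.00456 ± 0.00152.

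**Figure D4:**
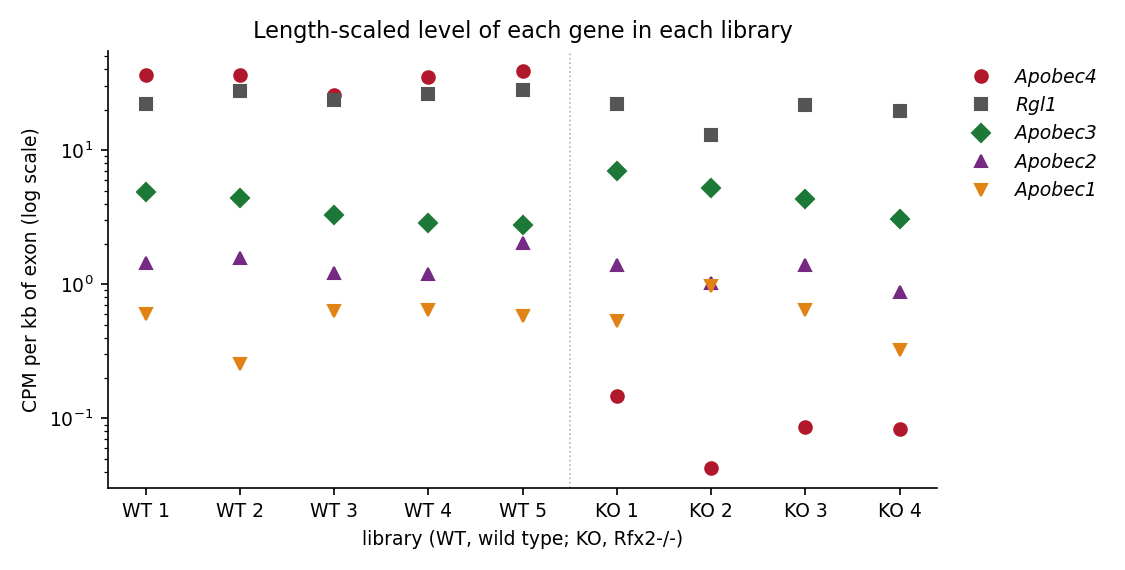
CPM per kb of merged exon (log scale, vertical axis) of the 5 genes in each of the 5 wild type (WT) and 4 Rfx2-/- (KO) libraries. Apobec4 was the highest gene in every wild type library and the lowest in every Rfx2-/- library, and the other 4 genes stood in the same order in all 9 libraries.

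Other deaminase genes were compared in the same fit. Of 12 listed, 11 were in the table and 8 were tested, of which 1 was called lower and 0 higher, against 4.51% of all genes tested called in either direction. DESeq2 also called 0 higher, and at an unadjusted p under 0.05 in edgeR 1 was higher and 2 were lower, Adarb1 and Adat2 (log2 fold change -0.44, edgeR adjusted p 0.115). The share of all genes with such an unadjusted p is not given here, so nothing is read from these counts in this list or those below. The median log2 fold change of the 8 was 0.22, against 0.03 over all genes. The gene called lower was Adarb1, which encodes the RNA-editing adenosine deaminase ADAR2. Its level was 30.3 ± 1.72 CPM (SD, n = 5) in wild type against 12.9 ± 3.08 CPM (SD, n = 4) in Rfx2-/-, with no overlap, and its log2 fold change was -1.22 ± 0.17 (SE) at an edgeR adjusted p of 0.000521. Adar, the other editing enzyme of this kind, had 24.0 ± 2.37 and 23.3 ± 9.35 CPM. The germ cell genes Adad1 and Adad2, which encode proteins with an adenosine deaminase domain, were not called, with log2 fold changes of 0.29 and 0.33. Cdadc1, a gene with a cytidine deaminase domain, was higher in all 4 Rfx2-/- libraries than in any wild type library (23.5 ± 1.73 and 32.9 ± 7.51 CPM), a pattern without overlap that 15.9% of all genes showed in one direction or the other, and was not called (edgeR adjusted p 0.072). Adar, Adad1, Adad2, Adat2 and Cdadc1 were named after their values were seen.

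Of 7 genes for APOBEC1-dependent mRNA editing, the edited Apob mRNA included, 6 were tested, and 1 was called lower and 0 higher, against 3.68% and 0.826% of all genes tested (median log2 fold change -0.11). DESeq2 called 0 of them higher as well, and at an unadjusted p under 0.05 in edgeR 1 was lower and 1 higher. The gene called was Rbm47, which encodes an RNA-binding cofactor of APOBEC1. Its level was 33.8 ± 8.72 CPM (SD, n = 5) in wild type against 15.7 ± 3.85 CPM (SD, n = 4) in Rfx2-/- (log2 fold change -1.10 ± 0.24, SE, with an adjusted p of 0.00958 by edgeR). The genotypes met at 19.5 CPM, and the call was lost without any one of wild type replicates 1, 2, 4 and 5 or of the 4 Rfx2-/- replicates, with log2 fold changes of -1.18 to -0.96. The substrate Apob had a level of 0.703 ± 0.144 CPM in wild type against 0.509 ± 0.154 CPM in Rfx2-/- and was not tested.

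Among 5 genes for the excision of uracil from DNA, 0 were called by edgeR, by DESeq2 or at an unadjusted p under 0.05 (median log2 fold change 0.15). The share called by edgeR over all genes tested was 4.51% in either direction, so this count is ordinary for a list this short. Ung, the main uracil DNA glycosylase, had a level of 10.5 ± 0.778 CPM in wild type against 12.9 ± 2.61 CPM in Rfx2-/-. The log2 fold changes of the other genes named by level were 0.15 for Mbd4, 0.17 for Apex1 and 0.06 for Smug1.

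Among 13 genes of the RAL pathway, in which RGL1 acts, 0 were called by edgeR or by DESeq2 (median log2 fold change -0.10). By edgeR, 4.51% of all genes tested were called in either direction. At an unadjusted p under 0.05 in edgeR there was 1 gene. That gene was Ralb, one of the GTPases that RGL1 activates, at 38.0 ± 5.31 CPM in wild type against 54.7 ± 21.3 CPM in Rfx2-/- (log2 fold change 0.52, edgeR adjusted p 0.154). The most abundant genes of the list were the exchange factors Ralgps2 and Ralgds, with log2 fold changes of -0.25 and -0.41, and the GTPase-activating subunits Ralgapa1 and Ralgapb, with 0.12 and -0.03. Ralgds, a close relative of Rgl1, was thus as far from 0 as Rgl1 itself, and was not called (edgeR adjusted p 0.201).

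Apart from Rgl1, 8 genes of the table lie within 500 kb of Apobec4, and 6 of them were tested. Of these 6, 0 were called by edgeR, by DESeq2 or at an unadjusted p under 0.05. Since edgeR called 4.51% of all genes tested in either direction, an absence of calls among so few genes is ordinary. The median of their log2 fold changes was 0.00. Arpc5, whose promoter adjoins the distal Rgl1 start, had a level of 27.6 ± 3.59 CPM in wild type against 32.9 ± 9.07 CPM in Rfx2-/- (log2 fold change 0.25). Lamc1, which encodes a laminin chain, had a log2 fold change of -0.04, and Tsen15, which encodes a tRNA splicing subunit, had 0.04. The low level of Apobec4 was thus not shared by any neighbour tested.

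**Figure D5:**
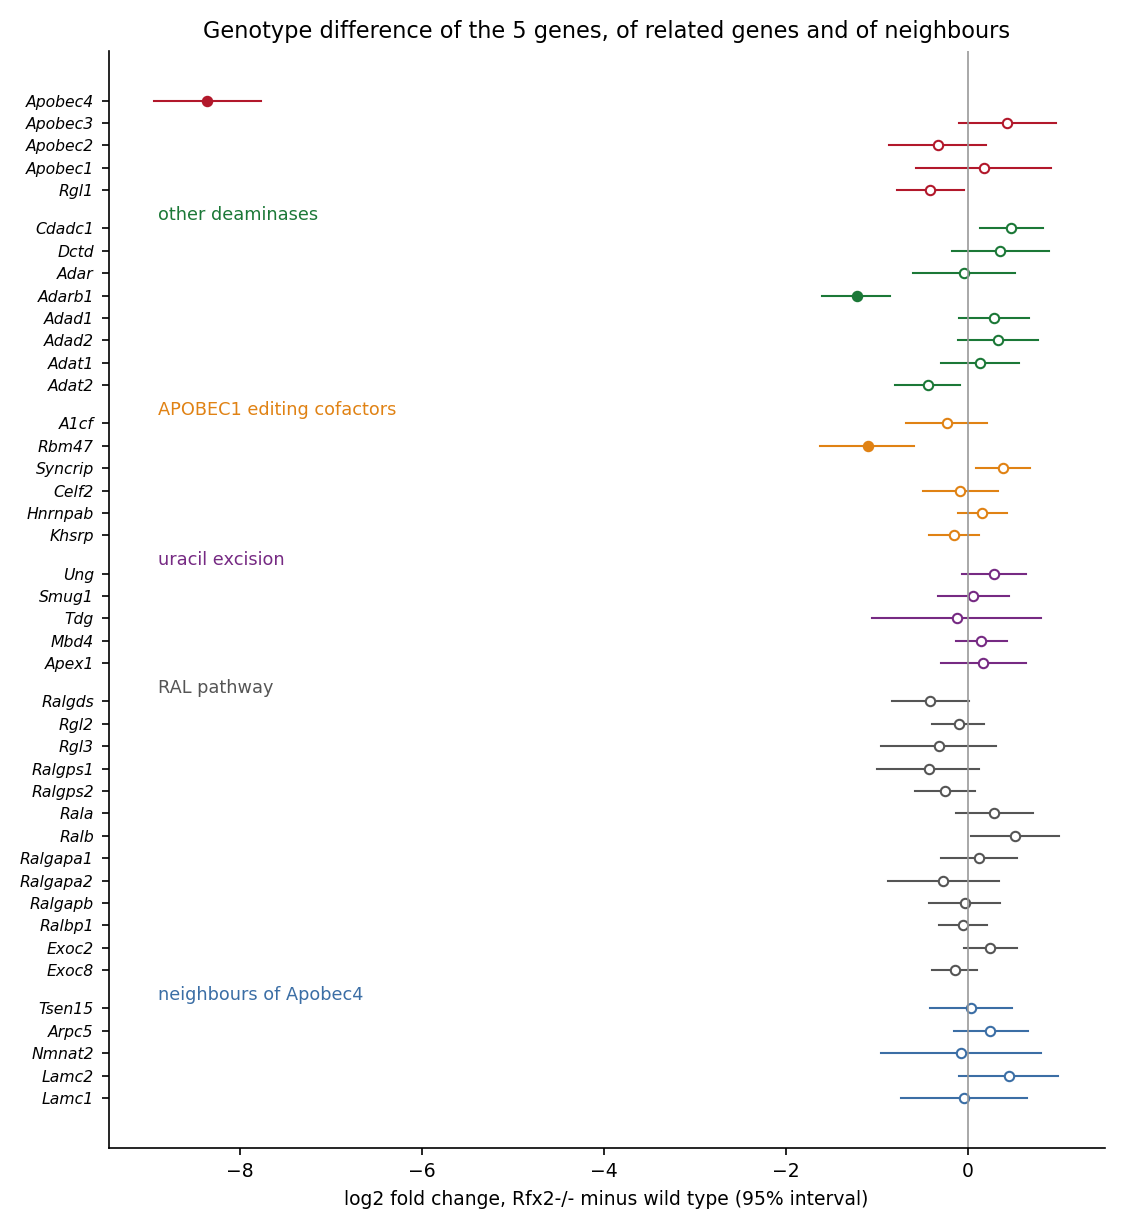
Fitted log2 fold change (Rfx2-/- minus wild type, horizontal axis) with its 95% interval for the 5 genes, genes of the related lists and neighbours of Apobec4, with filled points for genes called at an adjusted p of at most 0.01 and a change of more than 2-fold. Apobec4 stands at -8.36. Its point is filled too, but Apobec4 was chosen from this contrast, so its value is a description and not a test result. Adarb1 (-1.22) and Rbm47 (-1.10) were called.

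The genes most like Apobec4 over the 9 libraries were sought by the distance between log2(CPM + 1) values, each centred on its wild type mean, among 12828 named genes with a mean of at least 50 counts. They were 1700012P22Rik (distance 0.24), Tsga10ip (0.46), Dnaic2 (0.56), 1700001C02Rik (0.64) and Drc1 (0.65). Dnaic2 encodes an intermediate chain of the axonemal outer dynein arm and Drc1 a subunit of the nexin-dynein regulatory complex of the axoneme. Their levels in Rfx2-/- were 0.149% of wild type for 1700012P22Rik, 0.555% for Tsga10ip, 0.922% for Dnaic2, 0.167% for 1700001C02Rik and 1.33% for Drc1. In 1700012P22Rik, for example, the range was 40.0 to 57.9 CPM in wild type and 1 to 2 counts in each Rfx2-/- library. The best X-box match was 8 of 12 for 1700012P22Rik, 9 for Tsga10ip and Dnaic2 and 10 for Drc1, each below the 11 of Apobec4. By the best window of each gene, 63.4% of all genes reached 8 of 12, 15.8% reached 9 and 3.27% reached 10. No window was matched for 1700001C02Rik.

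The genes most like Rgl1 were Zpr1 (distance 0.12), Specc1l (0.23), Plpbp (0.25), Nrd1 (0.27) and Gpatch2l (0.27). They were at 74.8 to 76.3% of wild type in Rfx2-/-, and none of them was called. Genes of both lists were picked by distance over both genotypes, so their levels in Rfx2-/- follow from the choice. The lists of 5 for the 2 genes had no gene in common, which follows from the choice as well.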

How the data were processed

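Testis RNA was sequenced by the authors from 5 wild type and 4 Rfx2-/- mice, and they deposited a table of raw counts, in whole reads per gene and not normalised. The methods describe 2 mappings, with Bowtie and with STAR, and do not say which gave this table. The submitters' processing notes name CASAVA 1.8.2, GRCm38, STAR 2.4 and featureCounts 1.4.6, so it was taken that reads were mapped with STAR and counted with featureCounts over merged exons of protein coding isoforms (Ensembl), without reads of several positions or several genes. Genes that share sequence therefore lose reads, and the use of strand is not stated.

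Gene names, positions and exon lengths were taken from GENCODE M21, which held 96.6% of the identifiers. Exon lengths may differ from those used in counting. Promoter windows were those of RefSeq (GRCm38.p6). Genotypes were compared with edgeR 4.0.16 under R 4.3.3 (quasi-likelihood F test, TMM, filterByExpr, robust), with Benjamini-Hochberg adjustment over 15613 genes. SEs were derived from the F statistics. DESeq2 1.42.0, other scalings, no filter, removal of a gene length trend, another threshold and omission of each library were alternatives. The test was checked on simulated counts. Means of TMM-scaled CPM are over mice, with their SD, and intervals on counts cover counting error only.

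The members, gene lists, marker lists and tests were chosen with earlier results of these data known. Named were the 5 members, Rfx2, every listed gene or neighbour that was called, otherwise up to 4 of a list with the highest mean CPM, and the 5 genes most like Apobec4 and Rgl1. Some genes covered by this rule or counted in the lists are not reported here.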

Additional observations from a re-analysis of the deposited data

Results flagged for a closer look

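One library stood apart from its group. Apobec1 was at 0.619 CPM in wild type replicate 2, against 1.40 to 1.55 CPM in the other 4 wild type libraries. The gap was beyond Dixon's critical value for a group of 5. The value rests on 8 counts (exact Poisson 95% interval 3.45 to 15.8 counts). Without this library the Apobec1 log2 fold change was 0.00. The 5 genes gave 10 groups to compare, and chance alone marks about 1 group in 20.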

How the results depend on the processing

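No paired analysis was possible because the labels number animals and share no replicate number between the genotypes. Without 1 library at a time the genes called lower numbered 447 to 632 and those called higher 92 to 175. At an adjusted p of 0.05 with no fold limit 1142 genes (7.31%) were lower and 544 (3.48%) higher, and with DESeq2 198 were higher. Apobec4 was lower in all 15 alternatives, with a log2 fold change of -8.78 to -8.16 without 1 library at a time, and Rgl1, Apobec2 and Apobec3 kept their direction and were called in none of them. The Rgl1 value was -0.46 to -0.27, that of Apobec2 -0.41 to -0.18 and that of Apobec3 0.24 to 0.63. Apobec1 went from -0.11 to 0.41, and it was the value without Rfx2-/- replicate 2 that changed direction, to -0.11. Adarb1 was called in all 15 alternatives. The count of genes called lower among those for APOBEC1-dependent editing, 1 in the report, was 0 with total counts (Rbm47 at -0.96) and 0 with the length trend removed (-0.97), and it was 0 to 1 without 1 library at a time. Genes near 0 changed direction. With total counts Adar was at 0.08, Ralgapb at 0.10 and Lamc1 at 0.09, and with the length trend removed Adar was at 0.05, Ralgapb at 0.16, Lamc1 at 0.06, Ralgps2 at 0.01 and Tsen15 at -0.02. Without 1 library at a time Adar ranged from -0.16 to 0.21, Apex1 from -0.08 to 0.36, Smug1 from -0.02 to 0.14, Ralgapb from -0.11 to 0.13, Lamc1 from -0.36 to 0.24 and Tsen15 from -0.11 to 0.17. The causes were not tested. The share of promoter windows as good as that of Apobec4 was 12.5% by the arm GTTGCC alone and 0.682% by the full palindrome. Depth limits Apobec1 and Apobec2, with under 61 counts in every library, and the level of Apobec4 in Rfx2-/-, which rests on 12 counts.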
